A study of Mus musculus with 28 samples.

Results

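Plasmacytoid dendritic cells (pDC) whose Irf8 gene was targeted by an Itgax-cre transgene were compared with control conventional type 2 dendritic cells (cDC2), to ask which genes of cDC2 these pDC reach in level and which they do not. The pDC (pDC_TG, 4 libraries) were sorted from spleens of Irf8fl/fl Itgax-cre mice, and the cDC2 (cDC2_WT, 8 libraries, CD172a+) from spleens of Irf8fl/fl mice without Cre, so that both groups carry loxP-flanked Irf8 alleles. These 12 libraries are all those with the 2 labels, among 28 libraries of the series. The others are 8 libraries of pDC (pDC_WT) and 8 of conventional type 1 dendritic cells (cDC1_WT), both from Irf8fl/fl mice, which are used here for context. All mice were C57Bl/6, untreated and between 6 and 12 weeks old. Expression of Cre follows regulatory sequence of Itgax, the gene of the integrin CD11c, which conventional dendritic cells also express, and the labels do not give the share of pDC with a deleted allele. The mice differ between both genotypes, and cell type and genotype differ together between pDC_TG and cDC2_WT, so their effects cannot be told apart.

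pDC and cDC2 are separate lineages of dendritic cells. pDC are known for the rapid production of type I interferon after endosomal sensing of nucleic acids, and depend on the transcription factor E2-2 (Tcf4). cDC2 take up antigen through C-type lectins, present it on MHC class II to CD4 T cells, and depend on IRF4, RELB and, in the spleen, Notch2 signalling. IRF8 is a DNA-binding partner of the ETS factor PU.1 and is high in pDC and cDC1 and low in cDC2.

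Levels are CPM (counts scaled by TMM and set to a common library size), and log2 fold changes (log2FC) with their standard error (SE) are those of pDC_TG over cDC2_WT in one edgeR quasi-likelihood fit, with p-values adjusted by Benjamini-Hochberg over 13159 genes. A gene was called higher or lower at an adjusted p below 0.05. It counted as reached when the whole 95% interval of its log2FC lay above -1, that is, at most 2-fold under the cDC2_WT level. It counted as not reached when it was called lower with the whole interval below -1, and as in between otherwise. Reached therefore includes genes far above the cDC2_WT level and genes that pDC_WT already hold at that level.

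The pDC_TG libraries held 22805201 to 28725550 gene counts each and the cDC2_WT libraries 20696141 to 29351715, and a total of 3 counts over a group corresponds to 0.0263 CPM in pDC_TG and 0.0156 CPM in cDC2_WT. One pDC_TG library stood apart. The 10 neutrophil markers summed to 199 CPM in pDC_TG replicate 4, whereas pDC_TG replicates 1 to 3 had 0.230 to 4.59 CPM and cDC2_WT had 0.558 to 3.98 CPM, and 4 of the markers were called higher. The 10 red pulp macrophage markers summed to a median of 8.68 CPM in pDC_TG, lowest at 7.23 CPM, and to 474 to 575 CPM in cDC2_WT, with 8 of 10 called lower and none at 0 in either group. Most of the sum in cDC2_WT was Adgre1, at a mean of 370 CPM, against 0.357 CPM in pDC_TG. The 9 monocyte markers summed to 525 to 1068 CPM in pDC_TG and 3716 to 6766 CPM in cDC2_WT, with 6 called lower, Ace at 0 in every pDC_TG library and Vcan at 0 in every cDC2_WT library. Nearly all of that sum was Nr4a1, an immediate early gene, at 521 to 1050.1 CPM in pDC_TG and 3562 to 6553 CPM in cDC2_WT. The 9 B cell markers summed to 121 to 157 CPM in pDC_TG and 174 to 265 CPM in cDC2_WT, and the 8 T cell markers to 117 to 187 CPM in pDC_TG and 13.9 to 34.8 CPM in cDC2_WT. In pDC_WT the 8 T cell markers summed to 61.7 to 120 CPM. Of the T cell markers only Cd28 and Lck were called higher. Cd28 was at 47.5 to 73.8 CPM in pDC_TG, 0 to 2.05 CPM in cDC2_WT and 55.2 to 109 CPM in pDC_WT. Mean Lck was 66.4 CPM in pDC_TG, 0.828 CPM in cDC2_WT and 4.12 CPM in pDC_WT. Cd3e, Cd3d and Cd3g were each at 1.09 CPM or less in every pDC_TG library. The 8 NK cell markers summed to 3.68 to 5.36 CPM in pDC_TG and 2.11 to 7.15 CPM in cDC2_WT. The 6 plasma cell markers summed to 1109 to 1330 CPM in pDC_TG, 20.1 to 54.0 CPM in cDC2_WT and 215 to 385 CPM in pDC_WT, with 4 called higher and 1, Derl3, lower. Most of that sum in pDC_TG was Sdc1, at 873 to 1221 CPM in pDC_TG, 0 to 1.26 CPM in cDC2_WT and 36.8 to 66.5 CPM in pDC_WT, while Mzb1 stood at 23.0 to 74.8 CPM in pDC_TG, 0 to 0.775 CPM in cDC2_WT and 145 to 327 CPM in pDC_WT. The 13 cDC1 markers stood at 644 to 955 CPM in pDC_TG and 463 to 815 CPM in cDC2_WT, against 5345 to 7099 CPM in cDC1_WT, and erythrocyte and platelet markers at 2.56 CPM or less, with the hemoglobin genes at 0 in both groups. Of the cDC1 markers, 8 were called lower and 2 higher, and Batf3, Snx22 and Tlr11 were at 0 in pDC_TG. Most of the cDC1 marker sum in pDC_TG was Cd8a, at a mean of 660 CPM, against 2.67 CPM in cDC2_WT and 267 CPM in pDC_WT. Most of that sum in cDC2_WT was Wdfy4, at a mean of 474 CPM, against 93.6 CPM in pDC_TG. The part of such cells in the differences below was not tested. In sorted bulk samples, fewer cells of a type and less RNA per cell cannot be told apart.

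The targeted gene was measured first. Irf8 (chromosome 8, 120736358 to 120756694 on GRCm38) was at 1489.9, 1402, 1166 and 1787 CPM in the pDC_TG libraries and 49.2 to 87.1 CPM (median 74.7) in cDC2_WT, or 20.2-fold higher (log2FC 4.34, SE 0.12, adjusted p = 2.13e-23). The groups did not overlap, and p was 0.00202 in an exact permutation test of all 495 ways to divide the 12 libraries (two-sided), which is the lowest value that this test allows. Control pDC held 6145 ± 459 CPM (SD, n = 8), so the deleted pDC lay below pDC_WT and far above cDC2_WT. The table gives 1 count per gene, so a deleted exon cannot be read apart from the rest of the gene.

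Of 13159 genes tested, 3200 (24.3%) were higher in pDC_TG than in cDC2_WT and 3141 (23.9%) lower, and for 4370 (33.2%) the libraries of both groups did not overlap. Differences of at least 8-fold were called for 762 genes higher and 962 genes lower. Across all genes 8652 (65.7%) reached the cDC2_WT level, 3097 (23.5%) were in between and 1410 (10.7%) were not reached, and the median log2FC was 0.01. With scaling by total counts alone, 4267 genes were higher and 2487 lower, and the median log2FC of all genes moved to 0.21. Genes of cDC2 identity lay mostly below the diagonal and genes of pDC identity above it, whereas interferon-stimulated genes lay along it, as the plot of mean levels shows.

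**Figure D1:**
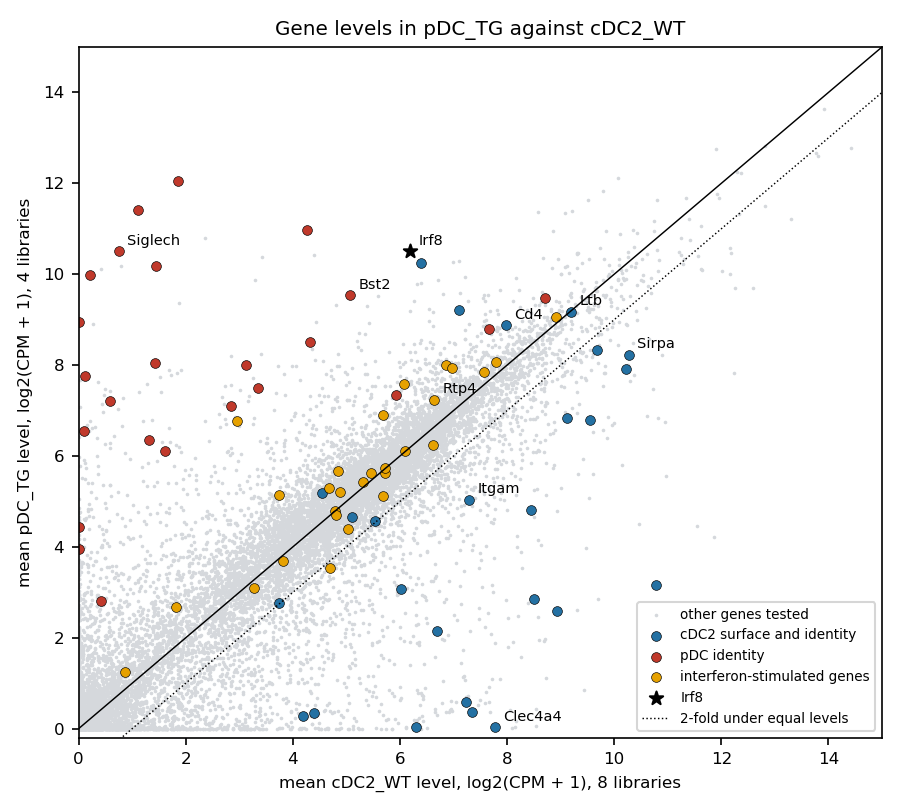
Mean level of each tested gene in pDC_TG (vertical axis, 4 libraries) against cDC2_WT (horizontal axis, 8 libraries), both as log2(CPM + 1). Members of 3 gene lists are coloured, the solid line marks equal levels and the dotted line marks levels 2-fold under them; Irf8 and pDC identity genes lie above the solid line.

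The 26 genes of cDC2 surface and identity were mostly far below the cDC2_WT level: 19 fell, 4 rose and 3 were not called, against 23.9% and 24.3% of all genes, with a median log2FC of -2.54. Of these genes, 17 were not reached, 4 were in between and 5 were reached, against 10.7%, 23.5% and 65.7% of all genes. The libraries of both groups did not overlap for 22 of the 26, against 33.2% of all genes. Averaged over the list, log2(CPM + 1) was 4.22 to 4.80 in pDC_TG and 7.11 to 7.57 in cDC2_WT, against 3.77 to 4.15 in pDC_WT and 2.77 to 3.29 in cDC1_WT, so each group's libraries formed a separate range. Of the 9 monocyte markers, 6 were also lower in pDC_TG, and several genes of the list are expressed by monocytes; their part was not tested.

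The lectin receptors of the DCIR family, which sit on the surface of cDC2, had few or no counts in pDC_TG. Clec4a4 (DCIR2, chromosome 6, 122990367 to 123024105), a receptor by which splenic cDC2 are recognised, was at 0, 0.0757, 0 and 0.0319 CPM in pDC_TG and 194 to 239 CPM (median 217) in cDC2_WT. Only 3 counts fell on it in all pDC_TG libraries together, and the groups were far apart. Clec4a2, its neighbour in the family, stood at 0 to 0.0384 CPM in pDC_TG and 65.4 to 85.8 CPM in cDC2_WT, and Clec4a1 at 0 to 1.17 CPM in pDC_TG and 122 to 168 CPM in cDC2_WT. Clec4a3 was at 0, 0, 0.0333 and 1.08 CPM in pDC_TG, with replicate 4 alone above 1 CPM, against 129.9 to 197 CPM in cDC2_WT. These neighbouring genes are similar in sequence, and the sources used here do not give how reads shared between them were counted.

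Csf1r, the receptor for M-CSF, was at 1.92, 0.870, 4.53 and 12.8 CPM in pDC_TG and 321 to 562 CPM (median 479.6) in cDC2_WT (log2FC -6.58, SE 0.91, adjusted p = 7.84e-07), and the libraries stood far apart. Clec7a (Dectin-1), a receptor for fungal glucans, reached 1.72% of the cDC2_WT level, with 6.52, 6.66, 3.89 and 7.75 CPM in pDC_TG against 194 to 563 CPM (median 365) in cDC2_WT. Lyz2, which encodes lysozyme, was at 0, 1.74, 3.59 and 26.3 CPM in pDC_TG and 1122 to 2499 CPM (median 1683) in cDC2_WT. Its highest pDC_TG value was that of replicate 4, the library with the neutrophil transcripts, and even that value lay far under every cDC2_WT library. Esam, an adhesion molecule of the Notch2-dependent cDC2 of the spleen, stood at 2.42 to 4.79 CPM in pDC_TG and 79.7 to 128 CPM in cDC2_WT (log2FC -4.90, SE 0.45, adjusted p = 1.82e-10), and pDC_WT had 1.43 to 15.7 CPM.

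Other genes were not reached but kept part of the cDC2_WT level. Sirpa (chromosome 2, 129592835 to 129632228) encodes CD172a, the protein by which the cDC2 were sorted, and was at 328, 319, 282 and 269.6 CPM in pDC_TG and 1084 to 1332 CPM (median 1254) in cDC2_WT, or 24.3% (log2FC -2.04, SE 0.38, adjusted p = 5.41e-05). No library of either group overlapped, and pDC_WT held 346 to 539 CPM, above every pDC_TG library. Itgam (CD11b, chromosome 7, 128062640 to 128118491) was at 36.3, 35.5, 19.1 and 36.5 CPM in pDC_TG, lowest in replicate 3, against 119 to 194 CPM (median 154) in cDC2_WT (log2FC -2.29, SE 0.60, adjusted p = 0.00241). In pDC_WT it was at 0 to 1.75 CPM, so the deleted pDC lay between both control populations. In the annotation 68.7% of the exonic bases of Itgam are shared with the predicted gene Gm49368, and the libraries do not mark strand.

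Tmem176a and Tmem176b, a pair of membrane proteins of myeloid cells, were likewise intermediate. Tmem176b was at 181, 268, 225 and 292 CPM in pDC_TG and 1039 to 1439.5 CPM (median 1178) in cDC2_WT (log2FC -2.31, SE 0.21, adjusted p = 1.92e-10), against 22.9 to 52.7 CPM in pDC_WT, and the 3 groups formed separate ranges. Tmem176a stood at 80.2 to 145 CPM in pDC_TG, 598 to 954 CPM in cDC2_WT and 9.67 to 21.7 CPM in pDC_WT. S100a4, a calcium-binding protein, had 16.1, 24.0, 30.5 and 38.0 CPM in pDC_TG, 280.5 to 421 CPM in cDC2_WT and 3.02 to 12.7 CPM in pDC_WT, again without overlap between the groups; 51.7% of its exonic bases are shared with the predicted gene Gm42674. The remaining genes not reached were Cd300a, Cx3cr1, Clec4b1 and Fcgr3, at 20.4%, 11.7%, 1.36% and 1.28% of the cDC2_WT level.

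Ltb, which encodes lymphotoxin beta (chromosome 17, 35194439 to 35196320), stood at the cDC2_WT level. It was at 605, 555, 587 and 564 CPM in pDC_TG and 507 to 687 CPM (median 588) in cDC2_WT (log2FC -0.02, SE 0.17, adjusted p = 0.924, 95% interval -0.36 to 0.31). All pDC_TG values lay inside the cDC2_WT range, while pDC_WT held 95.3 to 196 CPM. The other 4 members that counted as reached were called higher than cDC2_WT. Cd4, the coreceptor found on most splenic cDC2, was at 495, 483, 435 and 467 CPM in pDC_TG, 200.5 to 291 CPM (median 264) in cDC2_WT and 563 to 1027 CPM in pDC_WT (log2FC 0.90, SE 0.17). Clec12a, an inhibitory lectin, had 1109 to 1310.1 CPM in pDC_TG, 52.5 to 154 CPM in cDC2_WT and 417 to 637 CPM in pDC_WT, and the chemokine receptor gene Ccr2 483 to 726 CPM in pDC_TG, 65.0 to 189 CPM in cDC2_WT and 191 to 583 CPM in pDC_WT. Both were higher in every pDC_TG library than in any cDC2_WT library.

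Clec10a, a lectin for galactose-type sugars, was at 32.5, 28.1, 27.0 and 53.0 CPM in pDC_TG and 13.2 to 43.6 CPM (median 20.3) in cDC2_WT, and the ranges overlapped. Control pDC held a mean of 251 CPM, far above the means of 35.2 CPM in pDC_TG and 22.4 CPM in cDC2_WT. Clec10a was called higher in pDC_TG than in cDC2_WT (log2FC 0.65, SE 0.25, adjusted p = 0.0306). That call was lost without pDC_TG replicate 4 (adjusted p = 0.244), cDC2_WT replicate 1 (0.0569), replicate 3 (0.0563) or replicate 5 (0.0572). The call was also lost with the replicate block (adjusted p = 0.0509), in a fit of the 12 libraries alone (0.0708) and against cDC2_WT replicates 1 to 4 alone (0.152). In between were Cd209a (DC-SIGN), Ccr6, Cd1d1 and Mgl2. Ccr6, a receptor for CCL20, was at 21.0, 23.6, 18.5 and 33.9 CPM in pDC_TG and 25.3 to 44.5 CPM (median 32.8) in cDC2_WT (log2FC -0.46, SE 0.48, adjusted p = 0.461); the groups overlapped, and pDC_WT held 2.97 to 8.81 CPM. Cd209a was at 297 to 338 CPM in pDC_TG, 641 to 1034 CPM in cDC2_WT and 553 to 1115 CPM in pDC_WT, so that the deleted pDC lay under both control populations. The dot plot of the list by library shows these positions.

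**Figure D2:**
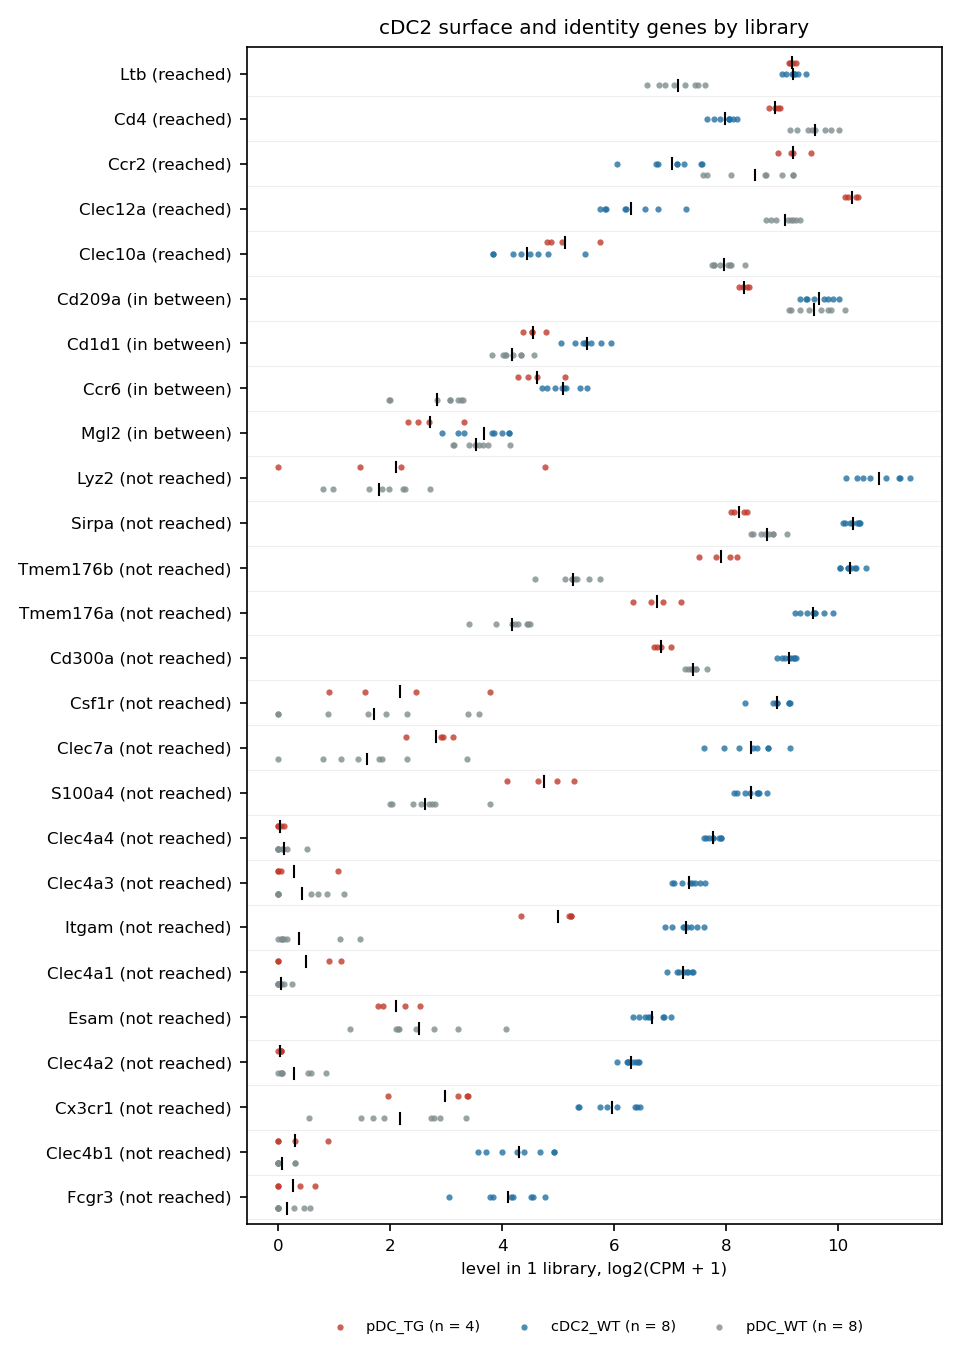
Level of each of the 26 cDC2 surface and identity genes in single libraries, as log2(CPM + 1), with pDC_TG (n = 4) above cDC2_WT (n = 8) and pDC_WT (n = 8) in each row and a black tick at the group mean. The class of each gene stands in brackets; the 17 genes not reached have pDC_TG points left of all cDC2_WT points, while the points of Ltb lie together.

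Among the 22 transcription factors of conventional dendritic cells, 19 fell and 2 rose, against 23.9% and 24.3% of all genes. The median log2FC was -1.99. Of these factors, 14 were not reached, 5 were in between and 3 were reached, against 10.7%, 23.5% and 65.7% of all genes. Id2 (chromosome 12, 25093799 to 25097140), an inhibitor of E proteins that opposes E2-2, was at 3.07, 5.67, 6.99 and 7.40 CPM in pDC_TG and 271 to 394 CPM (median 330.1) in cDC2_WT (log2FC -5.85, SE 0.20, adjusted p = 1.63e-20). That is 1.73% of the cDC2_WT level, and pDC_WT held a like 4.68 to 7.59 CPM. Relb, the NF-kappaB subunit needed by Notch2-dependent cDC2, was at 72.8, 54.2, 49.9 and 63.0 CPM in pDC_TG and 607 to 779.9 CPM (median 697) in cDC2_WT (log2FC -3.51, SE 0.17, adjusted p = 7.28e-17). Batf3, a partner of IRF8 in cDC1, and Tbx21 (T-bet), which marks a subset of cDC2, had no count in any pDC_TG library. Batf3 was at 48.2 to 57.7 CPM (median 51.4) in cDC2_WT, so that it was at least 1990.4-fold lower in pDC_TG, taking 3 counts over the group as the bound. Tbx21 had a median of 55.0 CPM in cDC2_WT and was at least 2164-fold lower.

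Spi1, which encodes PU.1, was at 184, 199.9, 194 and 228 CPM in pDC_TG and 645 to 781 CPM (median 703) in cDC2_WT (log2FC -1.82, SE 0.09, adjusted p = 3.55e-17), with 81.9 to 112 CPM in pDC_WT, so that the 3 groups did not overlap. The 3 factors reached were Irf4, Nfil3 and Stat3. Of these, only Nfil3 was called higher in cDC2_WT than in pDC_WT. Mean Nfil3 was 134 CPM in pDC_TG, 95.6 CPM in cDC2_WT and 32.9 CPM in pDC_WT, while mean Stat3 in pDC_WT was 322 CPM. Irf4, the factor cDC2 depend on, was at 329.6, 519.6, 399.9 and 488 CPM in pDC_TG and 147 to 385 CPM (median 214) in cDC2_WT (log2FC 0.98, SE 0.32, adjusted p = 0.014), with overlap at the highest cDC2_WT library, replicate 3. Its call was lost without pDC_TG replicate 2 (adjusted p = 0.0505), and pDC_WT held 95.9 to 253 CPM. Stat3, which carries the signal of FLT3, was at 332, 329, 324 and 327 CPM in pDC_TG and 199 to 319 CPM (median 276) in cDC2_WT (log2FC 0.27, SE 0.11, adjusted p = 0.0435), and its call was lost without any one of the 4 pDC_TG libraries or of cDC2_WT replicates 2, 5, 7 and 8 (adjusted p 0.0629 to 0.0844). The count of factors that rose was 0 without pDC_TG replicate 2.

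The 16 transcription factors of pDC went the other way: 11 rose, 2 fell and 3 were not called. Of all genes, 24.3% rose and 23.9% fell. The list had a median log2FC of 1.79, and none of its members was classed as not reached, against 10.7% of all genes. Tcf4 (E2-2), the factor pDC depend on, was at 779.8, 692, 589 and 864 CPM in pDC_TG and 41.3 to 55.0 CPM (median 45.1) in cDC2_WT (log2FC 3.96, SE 0.14, adjusted p = 4.69e-20). Runx2, needed for pDC to leave the bone marrow, stood at 433 to 610.4 CPM in pDC_TG and 13.5 to 25.2 CPM in cDC2_WT, and Irf7, the factor of interferon induction, at 608 to 727 CPM in pDC_TG and 127 to 179.6 CPM in cDC2_WT. All 3 kept a wide gap between the groups. Bcl11a, which is needed for pDC development, differed less, at 371 to 446 CPM in pDC_TG and 199 to 293 CPM in cDC2_WT (log2FC 0.82, SE 0.10). The 2 that fell were Cbfa2t3 and Nfatc2ip, both in between. Mean Cbfa2t3 was 112 CPM in pDC_TG, 206 CPM in cDC2_WT and 98.6 CPM in pDC_WT, and mean Nfatc2ip 6.23, 12.9 and 3.54 CPM.

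Most genes for presenting antigen to CD4 T cells were lower in pDC_TG than in cDC2_WT. Of 18 genes of MHC class II presentation, 16 fell and 1 rose, against 23.9% and 24.3% of all genes. The median log2FC was -1.09. Of the 18, 7 were not reached, 4 were in between and 7 were reached, against 10.7%, 23.5% and 65.7% of all genes. The mean of log2(CPM + 1) over the list was 8.06 to 8.14 in pDC_TG, 9.25 to 9.36 in cDC2_WT and 7.71 to 7.93 in pDC_WT. The gene that rose was Rfxank, which encodes a subunit of the RFX complex at class II promoters; without pDC_TG replicate 2 or cDC2_WT replicate 2 or 8, the count of genes that rose was 2. H2-Eb1, a class II beta chain, was at 2389.6, 2361, 2354 and 2373 CPM in pDC_TG and 9482 to 10621 CPM (median 10277) in cDC2_WT (log2FC -2.10, SE 0.06, adjusted p = 7.85e-22), or 23.4% of that level. H2-Ab1 stood at 6730.1 to 7365 CPM in pDC_TG and 20686 to 24160.0 CPM in cDC2_WT, and H2-Aa at 5847 to 6723 CPM in pDC_TG and 13293 to 16628 CPM in cDC2_WT, both without overlap. H2-DMa, a subunit of the peptide exchange factor, was closer to the cDC2_WT level, at 659.7, 668, 777 and 764 CPM in pDC_TG and 799 to 1004 CPM (median 925) in cDC2_WT (log2FC -0.34, SE 0.08, adjusted p = 0.000674). With scaling by total counts alone, H2-DMa was no longer called (log2FC -0.15, adjusted p = 0.0784). Ctss, the protease that trims the invariant chain, was at 1028 to 1111 CPM in pDC_TG and 1646 to 2035 CPM in cDC2_WT (log2FC -0.74, SE 0.06), within 2-fold of cDC2_WT although lower in every library. H2 genes are a family of near-identical copies, so single values are uncertain where reads were shared.

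Of the 20 genes of costimulation and T cell priming, 18 were tested, with a median log2FC of -3.44. Of the 18, 14 fell, 2 rose and 13 were not reached, against 23.9%, 24.3% and 10.7% of all genes. Cd83, a stabiliser of MHC class II and CD86 at the surface, was at 9.63, 21.3, 13.2 and 40.6 CPM in pDC_TG, highest in replicate 4, and 2255 to 4208 CPM (median 2966) in cDC2_WT (log2FC -7.15, SE 0.37, adjusted p = 7.88e-16). Cd86 and Cd40, ligand and receptor in the contact with T cells, stood at 4.30 to 11.9 CPM and 0.768 to 3.70 CPM in pDC_TG, against 106 to 134 CPM and 116 to 162 CPM in cDC2_WT. No library overlapped for these 3 genes. Tnfsf9 (4-1BBL), a ligand that costimulates T cells, reached the cDC2_WT level with 44.1, 56.6, 56.6 and 68.6 CPM in pDC_TG against 19.2 to 67.4 CPM (median 49.9) in cDC2_WT (log2FC 0.25, SE 0.32, adjusted p = 0.547), and pDC_WT held 5.32 to 29.1 CPM. Cd200, an inhibitory ligand, and Il12a, a cytokine subunit, were the 2 that rose; Cd200 was at 88.2 to 103 CPM in pDC_TG and 13.7 to 32.9 CPM in cDC2_WT.

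Genes of innate sensing were lower or higher in pDC_TG depending on the gene. Of 22 genes of surface Toll-like receptors and the inflammasome, 17 fell, 3 rose and 13 were not reached (median log2FC -2.54). Among all genes 23.9% fell, 24.3% rose and 10.7% were not reached. Of 20 genes of endosomal sensing and interferon induction, 9 fell, 5 rose and 12 were reached (median log2FC -0.26), where 23.9% of all genes fell, 24.3% rose and 65.7% were reached, so the count reached is close to that share. Whether the lists differ was not tested. Il1b, the inflammasome's cytokine, was at 5.45, 11.8, 20.3 and 32.8 CPM in pDC_TG, lowest in replicate 1, and 2415 to 5225 CPM (median 3523) in cDC2_WT (log2FC -7.72, SE 0.73, adjusted p = 8.49e-10). Tlr2, a receptor for bacterial lipoproteins, reached 20.1% of the cDC2_WT level, with 39.7 to 65.0 CPM in pDC_TG against 167 to 357 CPM in cDC2_WT, and Nlrp3 4.73%, with 2.42 to 3.77 CPM in pDC_TG against 48.5 to 79.9 CPM in cDC2_WT. Among the endosomal genes, Tlr13, a sensor of bacterial ribosomal RNA, had 2 counts in pDC_TG in all, against 195 to 246 CPM in cDC2_WT. Tlr8 had none and was at least 283-fold lower than the 5.18 to 9.96 CPM of cDC2_WT. Pld4, an endosomal nuclease, was higher in pDC_TG, at 1356 to 1741 CPM, than in cDC2_WT, at 729 to 986 CPM (log2FC 0.84, SE 0.10).

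Chemokines and their receptors went in both directions. Of 22, 11 fell and 6 rose, against 23.9% and 24.3% of all genes, with a median log2FC of -2.57. In this list 11 were not reached and 9 reached, against 10.7% and 65.7% of all genes. Ccl5, an inflammatory chemokine, was at 0.844, 0.908, 1.13 and 0.702 CPM in pDC_TG and 143 to 260.3 CPM (median 206) in cDC2_WT (log2FC -7.81, SE 0.45, adjusted p = 7.11e-15), and Ccl9 stood at 0.499 to 0.984 CPM in pDC_TG and 75.1 to 266 CPM in cDC2_WT. Ccr9, the gut-homing receptor that marks mature pDC and shares 21.4% of its exonic bases with other annotated genes, was at 880.4, 902, 892 and 1096 CPM in pDC_TG and 3.19 to 18.6 CPM (median 7.48) in cDC2_WT (log2FC 6.75, SE 0.27, adjusted p = 2.52e-18), and Cxcr3 at 50.7 to 84.0 CPM in pDC_TG and 3.87 to 9.61 CPM in cDC2_WT. Gpr183 (EBI2), which guides cDC2 to the bridging channels of the spleen, reached the cDC2_WT level, with 444, 747, 672 and 667 CPM in pDC_TG against 401 to 628 CPM (median 509) in cDC2_WT (log2FC 0.30, SE 0.27, adjusted p = 0.385), and pDC_WT held 151 to 505 CPM. Ranges of Gpr183 overlapped between the groups. Of 20 integrin and adhesion genes, 10 fell, 6 rose and 11 were reached (median log2FC -0.34), where 23.9% of all genes fell, 24.3% rose and 65.7% were reached. The tetraspanin genes Cd9 and Cd81 were at 3.91 to 10.9 CPM and 4.84 to 10.5 CPM in pDC_TG, against 234 to 279 CPM and 161 to 248 CPM in cDC2_WT.

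Of 26 cytokine and growth factor receptors, 14 fell and 8 rose, against 23.9% and 24.3% of all genes, with a median log2FC of -0.58. Of the 26, 14 were reached and 8 were not reached, against 65.7% and 10.7% of all genes. Ifngr1, a chain of the receptor for interferon gamma, was at 95.6, 112, 115 and 81.9 CPM in pDC_TG and 928 to 1049 CPM (median 992) in cDC2_WT (log2FC -3.30, SE 0.11, adjusted p = 1.29e-20), and the second chain, Ifngr2, at 81.3 to 113 CPM in pDC_TG and 285 to 353 CPM in cDC2_WT. Csf2ra, the GM-CSF receptor alpha chain, reached 9.55% of the cDC2_WT level, with 11.2 to 19.3 CPM in pDC_TG against 135 to 194 CPM in cDC2_WT. Il2rg, the common gamma chain, was at 507, 526, 486 and 474 CPM in pDC_TG and 532 to 631 CPM (median 580.0) in cDC2_WT and was not called (log2FC -0.22, SE 0.10, adjusted p = 0.0776), although every pDC_TG library lay under every cDC2_WT library. In a fit of the 12 libraries alone it was called lower (adjusted p = 0.00866); 30.5% of its exonic bases are shared with the predicted gene Gm20489.

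Of 20 further lectins and phagocytic receptors, 19 were tested. Of the 19, 11 fell, 2 rose and 8 were not reached, against 23.9%, 24.3% and 10.7% of all genes. The median log2FC was -3.20, or -1.49 with genes at 0 in pDC_TG set to their bound, and no other list's median changed in this way. Axl, a receptor for dead cells, stood at 0.0333 to 1.82 CPM in pDC_TG and 29.2 to 76.5 CPM (median 41.5) in cDC2_WT (log2FC -5.64, SE 0.69, adjusted p = 5.13e-08). Cd209c, a relative of DC-SIGN, was instead higher, at 53.7 to 84.4 CPM in pDC_TG and 1.43 to 4.14 CPM in cDC2_WT (log2FC 4.61, SE 0.23, adjusted p = 1.54e-16). Of 24 genes shared by conventional dendritic cells, 23 were tested (median log2FC -1.45). Of the 23, 15 fell, 6 rose and 12 were not reached, against 23.9%, 24.3% and 10.7% of all genes. Fgl2, a secreted immunoregulator, was at 5.68, 7.64, 5.82 and 5.90 CPM in pDC_TG and 616 to 946 CPM (median 844) in cDC2_WT (log2FC -7.04, SE 0.34, adjusted p = 1.3e-16), and Kit, the stem cell factor receptor, at 26.8 to 61.3 CPM in pDC_TG and 555 to 724 CPM in cDC2_WT.

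The counterpart was the list of pDC identity, of which all 24 members rose and none overlapped (median log2FC 7.03). Among all genes 24.3% rose, and for 33.2% the libraries did not overlap. Cox6a2, a subunit of cytochrome c oxidase, was at 635, 690.1, 1330.5 and 1359 CPM in pDC_TG and at most 0.419 CPM in cDC2_WT. Bst2 (the PDCA-1 antigen) was at 733, 639, 799.7 and 802 CPM in pDC_TG and 23.3 to 36.8 CPM (median 33.7) in cDC2_WT (log2FC 4.51, SE 0.12, adjusted p = 2.76e-23). Ly6c2 stood at 2265 to 3029 CPM in pDC_TG and 0.474 to 2.06 CPM in cDC2_WT, whereas the receptor genes Cd7 and Lair1 differed less. Cd7 stood at 599 to 855 CPM in pDC_TG and 355 to 525 CPM in cDC2_WT, and Lair1 at 418 to 491 CPM in pDC_TG and 182 to 227 CPM in cDC2_WT. The mean of log2(CPM + 1) over the list was 7.95 to 8.16 in pDC_TG and 2.17 to 2.45 in cDC2_WT, against 8.25 to 8.40 in pDC_WT. Every pDC_TG library thus lay far above cDC2_WT and somewhat below every pDC_WT library. Single members went both ways against pDC_WT. Mean Klk1 was 217 CPM in pDC_TG and 960 CPM in pDC_WT, and mean Siglech 1454 and 2298 CPM. Mean Cox6a2 was 1003.5 CPM in pDC_TG and 376 CPM in pDC_WT, and mean Dntt 496 and 208 CPM.

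Of 28 interferon-stimulated genes, 9 rose, 1 fell (Gbp3) and 18 were not called; 21 were reached and 7 in between, with a median log2FC of 0.23. Of all genes, 24.3% rose, 23.9% fell and 65.7% were reached, so the count reached is close to that share. Of the 17 members called higher in cDC2_WT than in pDC_WT, 11 were reached, 6 were in between and 0 were not reached. Among all 3787 genes called higher in that way, 1213 were reached, 1251 were in between and 1323 were not reached. The mean of log2(CPM + 1) over the list was 5.50 to 5.71 in pDC_TG, 4.94 to 5.57 in cDC2_WT and 4.04 to 4.57 in pDC_WT. Oasl2, a member of the oligoadenylate synthetase family, was at 224, 157, 209 and 172 CPM in pDC_TG, 39.2 to 78.7 CPM (median 72.3) in cDC2_WT and 27.7 to 67.7 CPM in pDC_WT (log2FC 1.52, SE 0.27, adjusted p = 3.29e-05). Ifi44 was at 99.5 to 119 CPM in pDC_TG, 2.47 to 12.1 CPM in cDC2_WT and 68.7 to 142 CPM in pDC_WT, so the pDC_TG values lay inside the pDC_WT range.

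Genes of protein folding in the endoplasmic reticulum, which pDC use for secretion, mostly counted as reached. Only 3 of the 22 were called higher in cDC2_WT than in pDC_WT, of which 1 was reached. Of 22, 10 rose and 5 fell, against 24.3% and 23.9% of all genes. In the list 20 were reached and 1, Sdf2l1, was not, against 65.7% and 10.7% of all genes. The median log2FC was 0.30. Without pDC_TG replicate 1, none was classed as not reached. The mean of log2(CPM + 1) over the list was 7.63 to 7.80 in pDC_TG, 7.42 to 7.54 in cDC2_WT and 8.12 to 8.34 in pDC_WT. Xbp1, the transcription factor of the unfolded protein response, was at 446, 417, 454 and 506 CPM in pDC_TG and 182 to 255 CPM (median 227) in cDC2_WT (log2FC 1.03, SE 0.09, adjusted p = 5.73e-11). Folding enzymes and chaperones moved in both directions: Txndc5, a disulfide isomerase, stood at 245 to 314 CPM in pDC_TG and 88.6 to 115 CPM in cDC2_WT, and Hspa5 (BiP) at 774 to 854 CPM in pDC_TG and 925 to 1145 CPM in cDC2_WT (log2FC -0.37, SE 0.08, adjusted p = 0.000168). Means in pDC_WT were 910 CPM for Xbp1, 650 CPM for Txndc5 and 1272 CPM for Hspa5. With total counts alone, Hspa5 was not called (adjusted p = 0.0595), and 3 genes of the list fell.

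All 24 genes of the cell cycle were lower in pDC_TG (median log2FC -1.95), against 23.9% of all genes. Of the 24, 12 were not reached, 11 were in between and Pcna alone was reached, against 10.7%, 23.5% and 65.7% of all genes. The mean of log2(CPM + 1) over the list was 2.76 to 4.23 in pDC_TG, with replicate 4 highest, against 4.96 to 5.60 in cDC2_WT and 2.15 to 2.88 in pDC_WT. Mcm7, a subunit of the replicative helicase, was at 43.4, 47.6, 60.2 and 65.4 CPM in pDC_TG and 123 to 167 CPM (median 149.8) in cDC2_WT (log2FC -1.45, SE 0.12, adjusted p = 1.08e-11), and pDC_WT held 27.6 to 33.4 CPM. Tk1, thymidine kinase, was at 2.30, 1.93, 2.63 and 7.31 CPM in pDC_TG and 22.2 to 41.3 CPM (median 29.7) in cDC2_WT. Of 20 genes of survival and apoptosis, 11 fell, 3 rose and 7 were not reached, against 23.9%, 24.3% and 10.7% of all genes. The median log2FC of the list was -0.48, and with total counts alone 3 were not reached. Mcl1, an anti-apoptotic BCL-2 relative, was at 438, 529, 481 and 478 CPM in pDC_TG and 1053 to 1381 CPM (median 1192) in cDC2_WT (log2FC -1.31, SE 0.09, adjusted p = 4.16e-13). Pmaip1 (NOXA), which opposes it, was also lower, at 225 to 383 CPM in pDC_TG and 1573 to 2258 CPM in cDC2_WT, and the pro-apoptotic Bad, which shares 20.5% of its exonic bases with Gpr137, was higher, at 37.4 to 40.6 CPM in pDC_TG and 10.7 to 19.1 CPM in cDC2_WT.

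**Figure D3:**
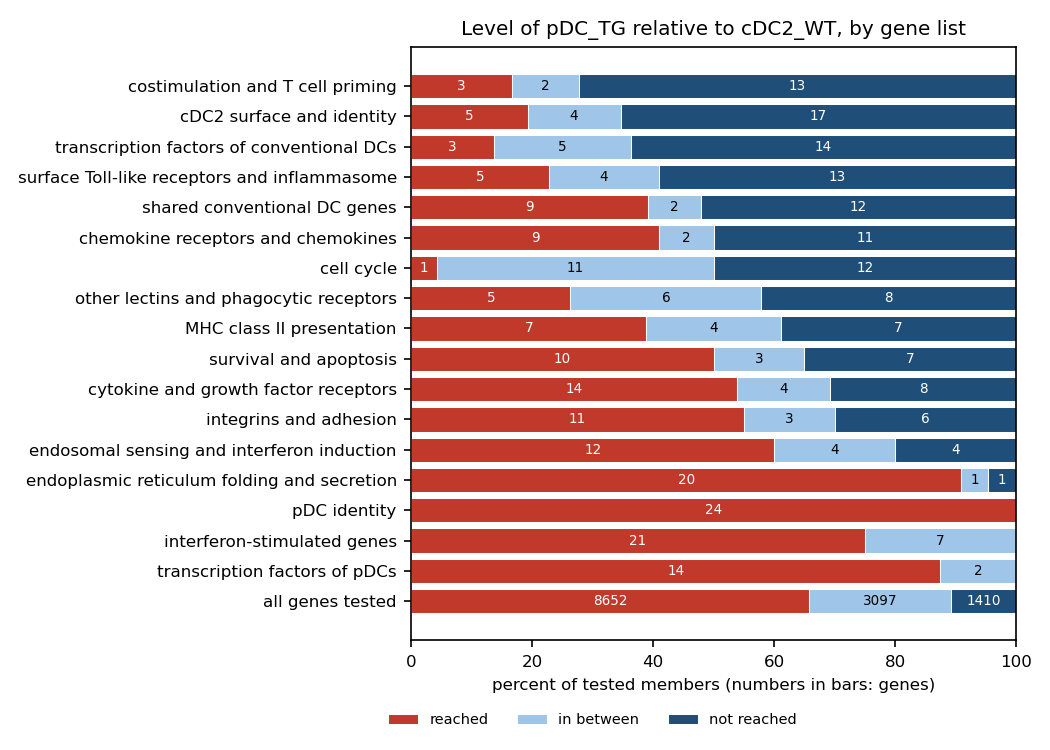
Share of the tested members of each gene list whose pDC_TG level reached the cDC2_WT level, was in between, or was not reached (horizontal axis, percent of members; numbers in the bars are genes). Lists are sorted by the share not reached, with all 13159 genes tested in the lowest bar; costimulation, cDC2 identity and transcription factors of conventional dendritic cells stand at the top.

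The largest differences among well-measured genes ran over 3 orders of magnitude. Adgre4, an adhesion receptor of myeloid cells, had 1 count in all pDC_TG libraries and 176 to 373 CPM (median 276) in cDC2_WT, and Tgfbi, an extracellular matrix protein, had 4 counts and 294 to 437 CPM (median 359). Il1rn, the antagonist of the IL-1 receptor, had none and was at least 2931-fold lower than its 57.7 to 106 CPM (median 73.6) in cDC2_WT. Sirpb1b (at least 2167-fold) and Spire1 (at least 1859-fold) likewise had no count in pDC_TG. In the other direction Dntt, the terminal transferase of lymphoid precursors, was at 494, 509.6, 508 and 471 CPM in pDC_TG and had 1 count in all of cDC2_WT. Lrrc15, a membrane protein, was at 146, 157, 120.2 and 111 CPM in pDC_TG with 3 counts in cDC2_WT, and pDC_WT held 2.37 to 11.6 CPM. Fbxl13, Serpinh1 and Klhl30 had no count in cDC2_WT and were at least 2043-fold, 1549.5-fold and 1474-fold higher in pDC_TG.

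Genes restricted to cDC2 relative to pDC were then chosen and read in different libraries. In WT replicates 5 to 8, 715 of 12263 genes (5.83%) were called at least 4-fold higher in cDC2_WT than in pDC_WT with a mean of at least 10 CPM, and their levels were read in pDC_TG against cDC2_WT replicates 1 to 4. Of the 715, 12 (1.68%) reached the cDC2_WT level, 133 (18.6%) were in between and 570 (79.7%) were not reached, where among all 12613 genes of that fit 64.6% were reached and 9.49% were not. The median log2FC was -3.30; 664 were called lower and 2 higher, where 21.1% and 20.9% of all genes were. Because the choice requires a low level in pDC_WT, the position of pDC_TG between both control populations was measured as well.

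On the scale of log2(CPM + 1), with the pDC_WT mean at 0% and the cDC2_WT mean at 100%, the median restricted gene stood at 8.55% in pDC_TG, with quartiles of -1.13% and 28.4%. A total of 372 genes stood under 10%, among them 208 below the pDC_WT mean, and 70 at 50% or more. Taken by library, the median was 2.91%, 7.55% and 8.02% in pDC_TG replicates 1 to 3 and 16.1% in replicate 4, the library with neutrophil transcripts. Without replicate 4, 11 genes were reached and 573 were not. Against pDC_WT replicates 1 to 4, 175 of the 715 (24.5%) were higher in pDC_TG and 35 (4.90%) lower, where 5.97% and 6.03% of all genes were. The histogram of positions has its peak just above the pDC_WT level and extends toward cDC2_WT.

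**Figure D4:**
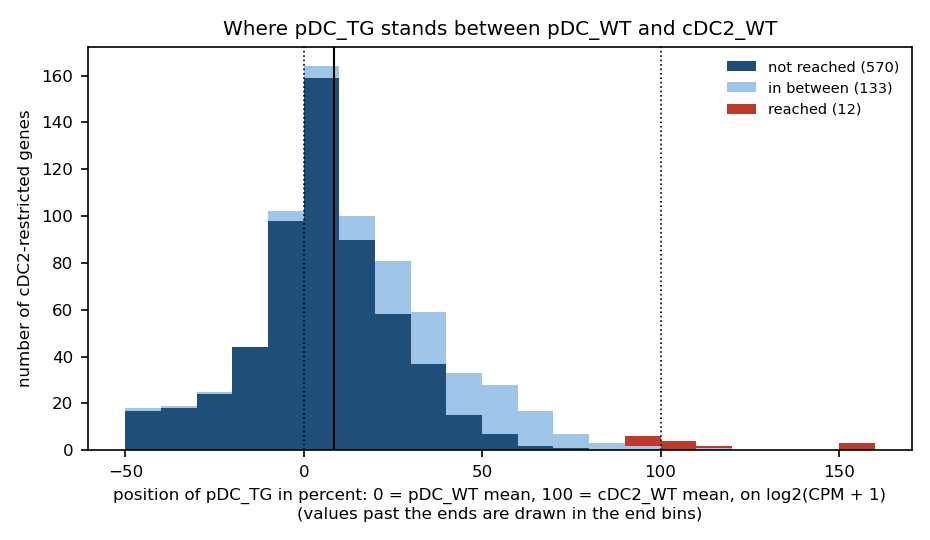
Position of pDC_TG between pDC_WT (0%) and cDC2_WT (100%) for 715 cDC2-restricted genes (horizontal axis, percent of the step on log2(CPM + 1), means of replicates 1 to 4; vertical axis, number of genes per bin). Colours give the class against cDC2_WT and the solid line is the median, 8.55%; the 12 genes reached all stand at 90.1% or more, together with 3 genes that were in between.

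The restricted genes were divided by whether cDC1 share them. Of 458 that were also at least 4-fold higher in cDC1_WT than in pDC_WT, 1 was reached (0.218%) and 388 (84.7%) were not. Of 257 that were not, 11 were reached (4.28%) and 182 (70.8%) were not. The difference between both subsets was not tested. By list, 17 members of cDC2 surface and identity were restricted, of which 14 were not reached and 1 was reached. None of 12 transcription factors of conventional dendritic cells, 8 costimulation genes or 10 surface sensing genes was reached, where 1.68% of all restricted genes were. Of the 7 interferon-stimulated genes that were restricted, 3 were reached, 4 were in between and 0 were not reached. Of 17 restricted cell cycle genes, 10 were in between and 7 were not reached.

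Some restricted genes of the cDC2 surface covered part of the step. Itgam stood at 66.0% of the step, Tmem176b at 55.0% and Tmem176a at 50.8%, whereas Csf1r stood at 17.2% and Esam at -5.29%. With replicates 1 to 4 of cDC2_WT, Itgam was in between (log2FC -2.21, 95% interval -3.50 to -0.92, adjusted p = 0.00797). Spi1 stood at 35.2% and the class II transactivator gene Ciita at 24.5%, while Id2 stood at -3.38%, Relb at -5.80%, Zbtb46 at 8.05% and Cd83 at -0.534%, that is, near pDC_WT. Itgax, whose regulatory sequence drives Cre, stood at 51.2% (log2FC -1.11, 95% interval -1.40 to -0.82, adjusted p = 3.76e-06).

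The 12 restricted genes reached were Emb, Oas3, Jup, Ltb, Cercam, Parp10, Ddx60, Rtp4, Ifit3, Stat4, Prdm1 and Chst2. Rtp4, an interferon-inducible chaperone of receptors (chromosome 16, 23520291 to 23614222; 13.9% of its exonic bases shared with Gm45338), was at 121, 132, 182 and 165 CPM in pDC_TG, 104 ± 13.9 CPM in cDC2_WT and 1.18 ± 0.929 CPM in pDC_WT, with replicates 1 to 4 of each (log2FC 0.53, 95% interval -0.46 to 1.52, adjusted p = 0.392). In a fit of all 12 libraries of both groups alone it was called higher (adjusted p = 0.0010). Ddx60, an RNA helicase induced by interferon, was at 42.1, 34.3, 56.3 and 33.1 CPM in pDC_TG, 34.4 ± 4.81 CPM in cDC2_WT and 0.934 ± 0.834 CPM in pDC_WT (log2FC 0.27, 95% interval -0.80 to 1.34, adjusted p = 0.715). Oas3, an activator of RNase L, was at 51.4, 52.4, 50.8 and 40.1 CPM in pDC_TG, 55.0 ± 7.61 CPM in cDC2_WT and 7.04 ± 1.71 CPM in pDC_WT, and Ifit3 at 34.4, 34.5, 50.2 and 34.6 CPM in pDC_TG, 26.1 ± 12.6 CPM in cDC2_WT and 1.65 ± 0.944 CPM in pDC_WT. Every pDC_TG library of these 4 genes lay above every pDC_WT library and within or above the range of all 8 cDC2_WT libraries. Parp10, a mono-ADP-ribosyltransferase, was at 51.6, 27.6, 28.3 and 31.3 CPM in pDC_TG, highest in replicate 1, and 31.0 ± 6.04 CPM in cDC2_WT.

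Genes of other kinds were among those reached as well. Emb (embigin), a partner of monocarboxylate transporters, was at 365, 421, 421 and 400.5 CPM in pDC_TG, 464 ± 28.7 CPM in cDC2_WT and 109 ± 15.7 CPM in pDC_WT (log2FC -0.21, 95% interval -0.45 to 0.03, adjusted p = 0.157). Every pDC_TG library lay under every cDC2_WT library, within the 2-fold margin. Against all 8 cDC2_WT libraries it was called lower (log2FC -0.25, SE 0.09, adjusted p = 0.0211), but not without pDC_TG replicate 1 (adjusted p = 0.0884) or with scaling by total counts alone (0.627). Jup (plakoglobin), the one reached gene that cDC1 share, was at 26.2, 20.8, 31.7 and 19.5 CPM in pDC_TG and 27.2 ± 5.50 CPM in cDC2_WT, and Cercam at 16.5, 30.5, 34.3 and 27.8 CPM in pDC_TG and 25.3 ± 4.40 CPM in cDC2_WT. In the fits that left out 1 library, 8 of the 12 genes always counted as reached and 4 did not. Ddx60 was lost without pDC_TG replicate 3 or cDC2_WT replicate 3, and Parp10 without pDC_TG replicate 1 or cDC2_WT replicates 2, 3 or 4. Jup was lost without pDC_TG replicates 1, 2 or 3 or cDC2_WT replicates 1, 3 or 4, and Cercam without pDC_TG replicates 2, 3 or 4 or cDC2_WT replicates 2 or 4.

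Stat4, Prdm1 and Chst2 stood above the cDC2_WT level. Stat4, which carries the signals of IL-12 and type I interferon (chromosome 1, 51987148 to 52107189), was at 106, 84.9, 76.7 and 81.3 CPM in pDC_TG, 38.2 ± 8.41 CPM in cDC2_WT and 7.83 ± 2.96 CPM in pDC_WT, and was called higher than cDC2_WT (log2FC 1.19, 95% interval 0.60 to 1.78, adjusted p = 0.00232); 26.7% of its exonic bases are shared with the predicted gene Gm28177. Chst2, a carbohydrate sulfotransferase (chromosome 9, 95399292 to 95406722), was at 69.0, 95.4, 71.9 and 51.3 CPM in pDC_TG, 15.3 ± 4.96 CPM in cDC2_WT and 0.161 ± 0.322 CPM in pDC_WT and was called higher (log2FC 2.23, 95% interval 0.88 to 3.59, adjusted p = 0.0102). Prdm1 (BLIMP-1), a repressor that drives plasma cell differentiation, was at 56.6, 51.4, 71.0 and 76.6 CPM in pDC_TG, 24.6 ± 7.41 CPM in cDC2_WT and 6.62 ± 2.71 CPM in pDC_WT, and its difference from cDC2_WT missed the threshold (log2FC 1.38, 95% interval 0.23 to 2.53, adjusted p = 0.0522), whereas against all 8 cDC2_WT libraries it was called higher (log2FC 1.20, SE 0.41, adjusted p = 0.0167). Prdm1 is one of the 6 plasma cell markers, of which Sdc1 makes up most of the sum in pDC_TG, and the part of such cells was not tested. The plot of the 12 genes by library shows pDC_TG points right of every pDC_WT point for each gene.

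**Figure D5:**
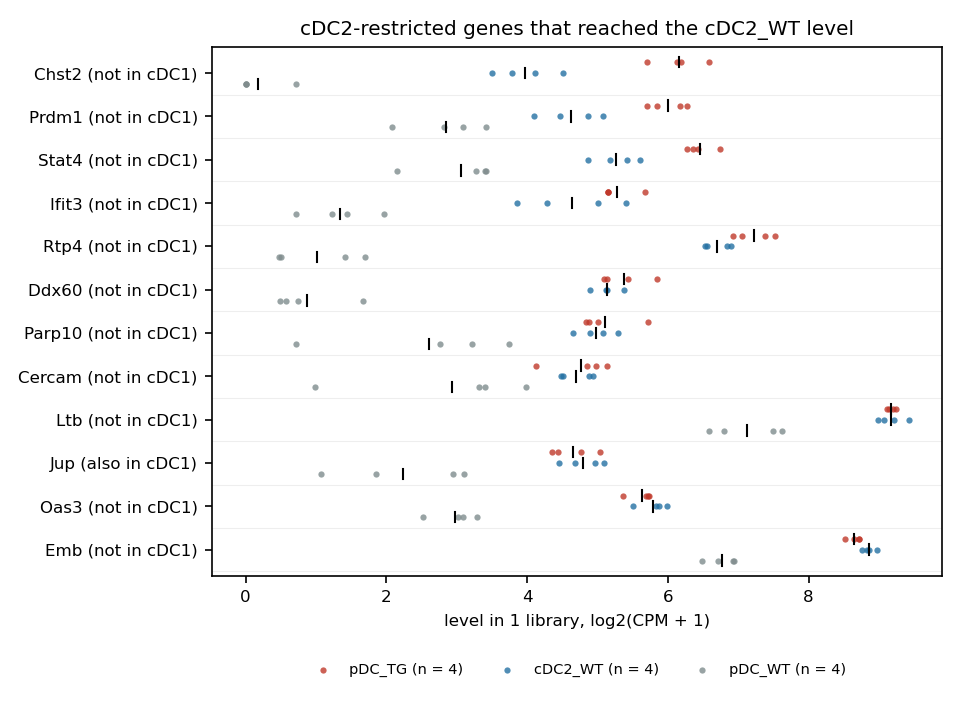
Level of the 12 cDC2-restricted genes that reached the cDC2_WT level, in single libraries of pDC_TG, cDC2_WT and pDC_WT (replicates 1 to 4 of each, top to bottom in each row; horizontal axis log2(CPM + 1); black ticks are group means). Brackets say whether cDC1_WT share the gene; Chst2, Prdm1 and Stat4 lie above cDC2_WT, the points of Emb lie just below cDC2_WT, and the other genes stand close to it.

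Promoters are shown for the most cDC2-restricted genes that have a single promoter in the RefSeq table (GRCm38.p6), 2 that were reached (Chst2 and Ddx60) and 2 that were not (H2-M2 and Mefv), because IRF8 and PU.1 bind DNA through short sequences that can be looked for in them. Each runs 5′ to 3′ on the strand of the gene, from 250 bases before to 50 after the start, and capitals mark matches to the IRF repeat GAAANNGAA, the composite ETS-IRF element GGAANNGAA or the PU.1 core AGGAAGT on either strand.
Chst2 (chr9:95407221-95407520, reverse strand): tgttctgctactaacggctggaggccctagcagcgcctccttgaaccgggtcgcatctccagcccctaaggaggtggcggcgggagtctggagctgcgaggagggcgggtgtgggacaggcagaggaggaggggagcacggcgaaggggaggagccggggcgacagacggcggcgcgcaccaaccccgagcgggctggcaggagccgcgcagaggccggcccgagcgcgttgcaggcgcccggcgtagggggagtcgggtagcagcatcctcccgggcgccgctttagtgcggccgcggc
Ddx60 (chr8:61927837-61928136, forward strand): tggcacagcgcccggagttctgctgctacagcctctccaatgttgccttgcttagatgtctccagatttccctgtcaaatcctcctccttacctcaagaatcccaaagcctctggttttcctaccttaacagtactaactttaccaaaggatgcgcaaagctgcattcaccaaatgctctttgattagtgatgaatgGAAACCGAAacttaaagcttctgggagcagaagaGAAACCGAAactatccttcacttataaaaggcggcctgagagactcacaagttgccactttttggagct
H2-M2 (chr17:37483505-37483804, reverse strand): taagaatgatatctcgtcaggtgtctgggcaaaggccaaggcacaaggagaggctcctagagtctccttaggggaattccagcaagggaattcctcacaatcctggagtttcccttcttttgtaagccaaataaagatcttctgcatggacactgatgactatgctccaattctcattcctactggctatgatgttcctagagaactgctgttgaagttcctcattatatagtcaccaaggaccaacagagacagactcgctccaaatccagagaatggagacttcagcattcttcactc
Mefv (chr16:3718075-3718374, reverse strand): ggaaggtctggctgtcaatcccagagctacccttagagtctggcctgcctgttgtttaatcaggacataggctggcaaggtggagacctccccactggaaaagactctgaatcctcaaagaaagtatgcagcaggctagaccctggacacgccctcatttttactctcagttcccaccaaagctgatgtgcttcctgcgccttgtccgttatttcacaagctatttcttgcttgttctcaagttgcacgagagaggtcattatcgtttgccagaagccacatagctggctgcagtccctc
Of these 4 promoters, that of Ddx60 held the IRF repeat at 2 places, and none held either of the other motifs. The Chst2 stretch lies wholly outside the gene position given above, which comes from GENCODE, so the RefSeq and GENCODE starts of Chst2 differ.

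Among all 32851 promoters of the table, 8.56% held the IRF repeat, 8.24% the composite element and 9.35% the PU.1 core. Of 11 promoters of 10 reached genes, 4 (36.4%) held the IRF repeat, those of Ddx60, Ifit3, Oas3 and Stat4, 1 (9.09%) the composite element and 0 the PU.1 core. Of 128 promoters of 99 genes in between, 17.2% held the IRF repeat, 6.25% the composite element and 11.7% the PU.1 core. Of 581 promoters of 432 genes not reached, the shares were 12.0%, 8.61% and 15.8%. The 3 motifs share letters and can overlap, a match is a string of letters and not a measured binding site, and the shares were not tested.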

How the data were processed

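Per the labels' protocols, RNA from splenic dendritic cells (4 ng) was amplified with SMART-Seq v4 and read as single 75 base reads, without strand or molecular identifiers. The build was mm10 and the tools TopHat2 2.1.0, Trimmomatic 0.35, SAMtools 0.1.18 and FastQC 0.11.4, per the submitters' processing notes; the sources used here do not give the counting tool, its annotation or its treatment of reads with several matches. The deposited values are raw read counts for 24421 gene symbols, with 5 summary lines left out here. Reads of no gene were 12.8% to 14.8% of the total in pDC_TG and 12.0% to 18.1% in cDC2_WT.

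All 28 libraries were fitted together with edgeR 4.0.16 in R 4.3.3 (TMM scaling, filterByExpr with a minimum count of 10, glmQLFit with robust estimation, glmQLFTest), and p-values were adjusted by Benjamini-Hochberg; the fit was tested on simulated data, where it missed part of the 2-fold changes, so a gene not called may still differ. DESeq2 1.42.0 and other scalings, filters, margins and sample sets were alternatives. Files were matched to groups by the sample titles. The labels do not say that replicates were separate mice, so p-values measure the spread between these samples. No pair of libraries agreed within sampling noise, and floors cover counting error only.

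Gene positions come from a GENCODE annotation of GRCm38, which held 24001 of the symbols. The comparison, the gene lists and the rule for naming genes were chosen with earlier results of these data known. Named by rule were Irf8, the 10 largest rises and falls without overlap at 10 CPM or more, the cDC2 list, up to 4 members of each other list with the smallest adjusted p and up to 2 reached members with the highest cDC2_WT level, and restricted genes at 30 CPM or more, 10 reached and 10 not. Chst2, Prdm1, Ifit3, Cercam, Jup, Itgax, Ciita, Zbtb46, Nfil3, Adgre1, Cd8a and Wdfy4 were named after their values were seen. Some named genes are not reported here.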

Additional observations from a re-analysis of the deposited data

Results flagged for a closer look

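Within the 305 groups of values looked at, 17 (5.57%) held 1 library set far from the others, where chance gives about 1 in 20. In pDC_TG, replicate 4 was high for the summed neutrophil markers (199 CPM), Clec4a3 (1.08 CPM), Lyz2 (26.3 CPM), Ccr9 (1096 CPM), Cd9 (10.9 CPM) and Tk1 (7.31 CPM), and low for Oas3 (40.1 CPM). Replicate 3 was low for Itgam (19.1 CPM). Replicate 2 was high for Fgl2 (7.64 CPM) and Calr (657 CPM) and low for the summed B cell markers (121 CPM), and replicate 1 was high for Parp10 (51.6 CPM).

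In cDC2_WT, replicate 2 was high for Clec10a (43.6 CPM), replicate 3 for Irf4 (385 CPM) and replicate 8 for Pycard (130.2 CPM). Replicate 1 was low for Csf1r (321 CPM) and replicate 6 for Bst2 (23.3 CPM). The cause of these values was not tested.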

How the results depend on the processing

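Against a threshold of a 1.5-fold change, 1700 genes passed as higher and 1912 as lower. With 1 library left out at a time, 2890 to 3141 genes were higher, 2815 to 3085 lower, 5 members of the cDC2 list were reached in every fit, and the log2FC of Irf8 was 4.23 to 4.44. Of the cDC2-restricted genes, 9 to 11 were then reached and 552 to 573 not reached.

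The number of restricted genes reached followed the choice of thresholds: 7 with a 1.5-fold margin and 32 with a 3-fold margin, 97 when chosen at a log2FC of at least 1 and 4 at a log2FC of at least 3, and 3 when chosen at 50 CPM or more, where 317 were not reached. It was 19 when genes were chosen in WT replicates 1 to 4 and read in replicates 5 to 8, and 10 of the 12 genes were among them. With total counts alone, 9 of the 12 were among 13 reached.

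With the replicate number as a block, 3163 genes were higher and 3090 lower, 5 list members were reached and the log2FC of Irf8 was 4.37. Same-numbered libraries of both groups did not deviate together (correlations of 0.02, 0.02, -0.01 and 0.03). These groups come from different mice, so this cannot show whether libraries shared a day or a batch. Neither the main fit nor the choice of restricted genes paired same-numbered control libraries. Their interferon-stimulated gene means, as log2(CPM + 1), were 5.57, 4.56 and 3.81 in replicate 1 of cDC2_WT, pDC_WT and cDC1_WT. In replicate 6 they were 4.96, 4.19 and 3.23. Whether control libraries are paired was not tested. Among list counts, MHC class II genes reached were 3 with a 1.5-fold margin and 11 with a 3-fold margin, cell cycle genes not reached were 21 and 4, and interferon-stimulated genes that fell were 2 or 3 under 6 alternatives. Of 3243 values of 141 named genes under 23 alternatives, 3157 kept their status as called or not called, 79 lost the call, 7 gained it and 0 reversed. A change of sign counted as reversed only where the gene was called in either fit, so uncalled genes could change sign. The cause of these changes was not tested. Counts per library limit statements on genes under the level of 3 counts in a group.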
